A study of Mus musculus with 2 samples.

Results

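The very long protein-coding genes of mouse chromosomes 1 to 19 were examined for DNase I cutting in M1 cells before and after IL-6. Each gene was represented by the transcript whose coding span, from the first to the last coding base, touched the most 700-bp windows, and genes with at least 300 windows (about 210 kb) were kept, which gave 692 of 21648 genes on these chromosomes and of 22605 genes in the whole table. The coding span leaves out untranslated first exons, so a promoter is inside the windows of some genes and outside those of others. The median number of windows was 469.5, the median span was 327.598 kb, and the largest, the predicted model Gm20388, had 6334 windows. The 692 genes formed 690 groups without overlap, since Tmem117 lies across Nell2 and Palm2 across AF064781.

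M1 cells come from a myeloid leukemia of the mouse, divide as immature cells and take on features of macrophages under the cytokine interleukin-6 (IL-6). Untreated M1 cells and M1 cells kept with IL-6 for several days, both in medium with horse serum, were compared by sequencing the short fragments that limited DNase I digestion of nuclei releases between a pair of cuts. There was 1 library per condition, so no difference between the libraries has a replicate check, and each interval below covers counting error only. The libraries held 8999087 and 8453052 reads over the coding spans of these chromosomes, and the IL-6 values are given as the authors scaled them, with 1.04 for each read.

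Very long genes are mostly intron, and many encode adhesion molecules, receptors and channels of neurons. DNase I cuts open chromatin of promoters and enhancers much more often than the closed chromatin between them, so a long gene is mostly background with a few strong windows in cells that use it. Signal from open sites raises the mean over windows a little and the spread over windows strongly.

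Promoter sequence is shown for the members in which the first windows of the gene could be separated from the rest and the start of the transcript was inside them. The following lines give the 250 bases before the start, 5′ to 3′ on the strand of the gene, with each CG in capitals. They cover 4 members with many M1 reads per window in those first windows (Camta1, Chchd3, Nubpl and Agmo) and 2 with few (Lrrtm4 and Galntl6). Where an annotated exon of any gene, on either strand, overlapped the 250 bases, the start was moved outward to the edge of that exon. Of 352 members with the start of their transcript inside the windows, 242 were used. Models that begin at the first coding base and genes whose moved start left the windows were left out. Among those without a sequence here, Arid1b, Mdga2 and Dnm3 had more M1 reads per window in their first part than Nubpl and Agmo. Coordinates are on NCBIM37.
Camta1: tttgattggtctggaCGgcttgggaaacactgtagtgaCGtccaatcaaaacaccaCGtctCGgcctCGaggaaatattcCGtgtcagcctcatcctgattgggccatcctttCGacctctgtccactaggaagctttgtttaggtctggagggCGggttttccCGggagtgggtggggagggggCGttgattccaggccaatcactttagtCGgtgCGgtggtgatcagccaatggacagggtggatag
Chchd3: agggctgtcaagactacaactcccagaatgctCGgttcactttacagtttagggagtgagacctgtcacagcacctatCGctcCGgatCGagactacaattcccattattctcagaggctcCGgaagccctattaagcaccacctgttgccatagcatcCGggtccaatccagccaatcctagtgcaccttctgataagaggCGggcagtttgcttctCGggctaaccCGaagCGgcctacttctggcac
Nubpl: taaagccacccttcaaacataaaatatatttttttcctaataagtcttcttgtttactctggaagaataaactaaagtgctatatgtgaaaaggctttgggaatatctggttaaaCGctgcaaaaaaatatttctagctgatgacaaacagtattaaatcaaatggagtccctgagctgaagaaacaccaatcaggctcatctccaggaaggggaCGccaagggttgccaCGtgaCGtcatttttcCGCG
Agmo: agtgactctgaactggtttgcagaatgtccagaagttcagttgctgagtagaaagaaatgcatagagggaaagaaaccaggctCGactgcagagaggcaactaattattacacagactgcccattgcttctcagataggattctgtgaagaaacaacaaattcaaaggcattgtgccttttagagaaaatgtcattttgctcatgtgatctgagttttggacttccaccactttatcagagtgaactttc
Lrrtm4: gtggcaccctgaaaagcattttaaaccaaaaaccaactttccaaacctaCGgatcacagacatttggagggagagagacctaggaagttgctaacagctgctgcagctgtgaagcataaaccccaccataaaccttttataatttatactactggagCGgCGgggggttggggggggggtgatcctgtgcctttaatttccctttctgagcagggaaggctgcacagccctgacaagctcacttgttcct
Galntl6: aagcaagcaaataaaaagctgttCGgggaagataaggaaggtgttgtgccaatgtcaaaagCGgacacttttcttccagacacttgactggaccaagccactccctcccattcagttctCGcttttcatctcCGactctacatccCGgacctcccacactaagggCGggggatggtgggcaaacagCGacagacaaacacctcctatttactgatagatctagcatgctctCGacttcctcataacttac

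Camta1 encodes a calmodulin-binding transcription activator, and its sequence is at chr4:151235986-151236235 on the minus strand. Chchd3, a subunit of the complex that shapes the cristae of mitochondria, is at chr6:33010261-33010510 (minus). Nubpl, an assembly factor of respiratory complex I, is at chr12:53198474-53198723 (plus), and Agmo, the alkylglycerol monooxygenase, is at chr12:37967976-37968225 (plus). Lrrtm4, a postsynaptic leucine-rich repeat protein, is at chr6:79968621-79968870 (plus), and Galntl6, a GalNAc transferase family member, is at chr8:61390600-61390849 (minus). The number of CG was 12 in Camta1, 10 in Chchd3, 6 in Nubpl, 1 in Agmo, 3 in Lrrtm4 and 8 in Galntl6. The median over the 242 members with such a sequence was 14. The median was 16 in the 58 members with a provable window of more than 21 reads in M1 and 13 in the other 184. A provable window is one whose presence the mean and SD of the whole span prove. Such a window, which can lie anywhere in the span, was found in 28.8% of members with 10 or more CG and in 16.7% of those with fewer. A first part of at most 20 windows could be compared with the rest in some of these members. In M1 it was at least 1.5-fold above the rest in 2 of 7 with 10 or more CG and in 6 of 14 with fewer. CCAAT, read on both strands, was present 5 times in Camta1 and in 30.6% of the 242 sequences, and no other sequence held as many. Chchd3 held it 2 times, and Nubpl and Galntl6 1 time each. ACTACAA, on both strands, was present 2 times in Chchd3 and in 3.31% of the sequences. TGACGTC, on both strands, was found in Nubpl in both directions (overlapping), 1 time in Camta1, and in 4.13% of the sequences. These letters were chosen after the sequences had been read.

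In untreated cells the long genes carried little signal. The mean over the windows of a gene had a median of 4.39 reads per window over the 692 members, against 8 over all genes of these chromosomes. Together the long spans made up 36.6% of the coding windows but held 22.5% of the M1 reads. By length, the median of the M1 mean was 7 for genes of 1 window, 6 for 2 to 4, 11.1 for genes of 5 to 14 windows, 9.85 for 15 to 49, 7.35 for 50 to 149, 6.04 for 150 to 299 and 4.39 for 300 or more. After IL-6 the long spans held 28.3% of the reads, and their median was 5.69 reads per window against 8.36 for all genes.

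**Figure D1:**
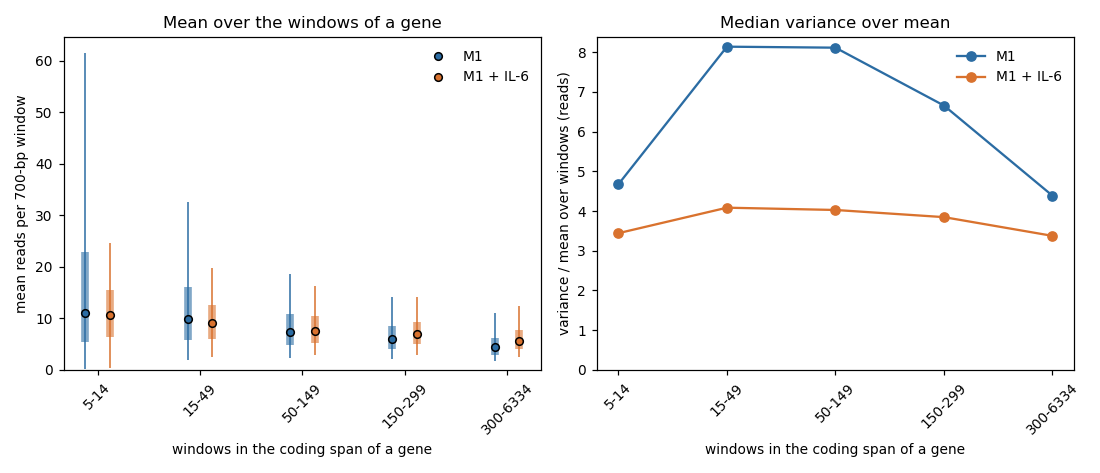
Left, mean reads per 700-bp window of a gene by the number of windows in its coding span, in M1 and after IL-6 (points, median over genes; thick bars, middle 50%; thin bars, 5% to 95%). Right, the median over genes of the variance over windows divided by the mean. The longest class has the lowest M1 median, 4.39, and its variance over mean is 4.39 in M1 and 3.37 after IL-6.

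The spread over windows of a long gene was described by the SD, which is scaled after IL-6, and by the variance divided by the mean. The latter was taken in unscaled reads and is a quotient near 1 where reads fall on windows by chance alone. The median SD was 4.40 in M1 and, as scaled, 4.50 after IL-6, and the median variance over mean was 4.39 and 3.37. This quotient was lower after IL-6 in 475 of 692 members (68.6%; 73% of all genes of 2 or more windows and over 21 reads). The SD as scaled was lower in 299, a count that depends on the scale and was not made over all genes. A quotient above 10 was found for 179 members (25.9%; all such genes, 41.5%) in M1 and for 12 (1.73%; all such genes, 13.2%) after IL-6. The lower quotient after IL-6 was thus shared with genes of other lengths. Members with the start of their transcript inside the windows (352) had a median M1 mean of 4.39 and a quotient of 4.72, and those without it (340) had 4.39 and 4.01.

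The largest members illustrate the background. Cntnap2, a neurexin-family adhesion protein of axons, has 3199 windows on chromosome 6 and a mean of 2.01 reads (interval 1.96 to 2.06), SD 2.42, in M1 and 2.91 (2.85 to 2.97), SD 2.82, after IL-6. Lrp1b, a receptor of the LDL receptor family, has 2938 windows and means of 1.56 (SD 1.80) and 2.28 (SD 2.26). Macrod2, an enzyme that removes ADP-ribose from proteins, has 2850 windows and means of 2.53 and 3.60. Dlg2, a scaffold of the postsynaptic density, has 2776 windows and means of 2.25 and 3.44. All 4 were below the median of the members in both libraries, and their quotients of variance and mean lay between 2.07 and 2.91 in M1. Gm20388, with 4432.54 kb on chromosome 8, was the exception among the 5 longest: its mean was 20.4 in M1 and 16.9 after IL-6. The listed coding spans of 74 other genes lie inside this model, and 2304 windows of those genes (a gene that overlaps a longer one already counted was skipped) and the 4030 other windows had the same M1 mean, 20.4.

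Departure from background was counted as a mean at least 1.5-fold above or below the median of the members. In M1, 156 members were above it (22.5%; 68.9% of all genes with over 21 reads exceed the same level) and 169 were below (24.4%; 6.67% of all genes). After IL-6, 128 members were above (18.5%; all genes, 57%) and 152 below (22%; all genes, 7.24%). Every member passed the minimum of 21 reads, which many short genes of low signal did not. Without it, 59.2% of all genes were above and 14.9% below in M1, and 48.8% and 15.4% after IL-6. In both libraries together 118 members were above and 144 below, and all genes were not counted in this way. The order of the members was close to the same in each library (Spearman 0.95 over the 692 members, which share both libraries). GC content differed along this order. Over quartiles of GC the median M1 mean was 2.25, 3.69, 5.06 and 7.60 reads per window, and the rank correlation of GC with the mean over the 692 members was 0.82 in M1 and 0.88 after IL-6. Against the median of the 50 members nearest in GC, a comparison added after the data were seen, 92 members were above and 29 below in M1, and 41 and 20 after IL-6. The part of base composition in the means was not tested.

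The 6 members with the highest M1 mean stood at 4 to 6 times the median. Mtus2, which encodes a microtubule-associated protein, had 24.8 reads per window (24.3 to 25.4) in M1 and 29.8 (29.2 to 30.4) after IL-6. Mad1l1, a protein of the spindle checkpoint, had 21.7 (21.3 to 22.2) and 25.8 (25.4 to 26.3). Both were higher after IL-6 on the authors' scale. Gm20388 followed, and then Trappc9, a subunit of a vesicle tethering complex, with a counting interval of 19.7 to 20.3 in M1 and a mean of 15.6 (15.3 to 15.9) after IL-6. Tbc1d22a, which has the domain of Rab GTPase-activating proteins, had 18.3 and 18.5, and Fry, a large protein of microtubule and chromosome alignment, had 18.3 and 18.2. Neither of these 2 members had an interval of the ratio that excluded 1.

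At the lower end, Skint6 and Skint5, genes of the immunoglobulin superfamily, had 0.121 and 0.231 reads per window in M1 and 0.166 and 0.415 after IL-6. Skint6 had 83 and 110 reads over 686 windows. Gm8897 had 74 and 97 reads over 336 windows, and 8.74% of its 32-base sequences occurred once in the genome. The share of such unique sequences was 70.1% in Skint6 and 71.3% in Skint5, against a median of 91.8% over the members. Esr1, the estrogen receptor alpha, had 0.616 (0.543 to 0.696) and 0.828, with 82.0% of such sequences unique. Mmp16, a membrane-bound matrix metalloproteinase, had 0.902 and 1.37. Sim2, a transcription factor of the bHLH-PAS family, had 1.11 and 1.41, but 84.9% of its span is unresolved bases in the reference, and without those its means were 7.34 and 9.33. In 12 members the span held such bases, and in 8 they were over 10%. Rasgrf2, a Ras exchange factor, was the other member with most of its span unresolved (74.5%), with means of 1.57 as listed and 6.17 without them in M1.

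**Figure D2:**
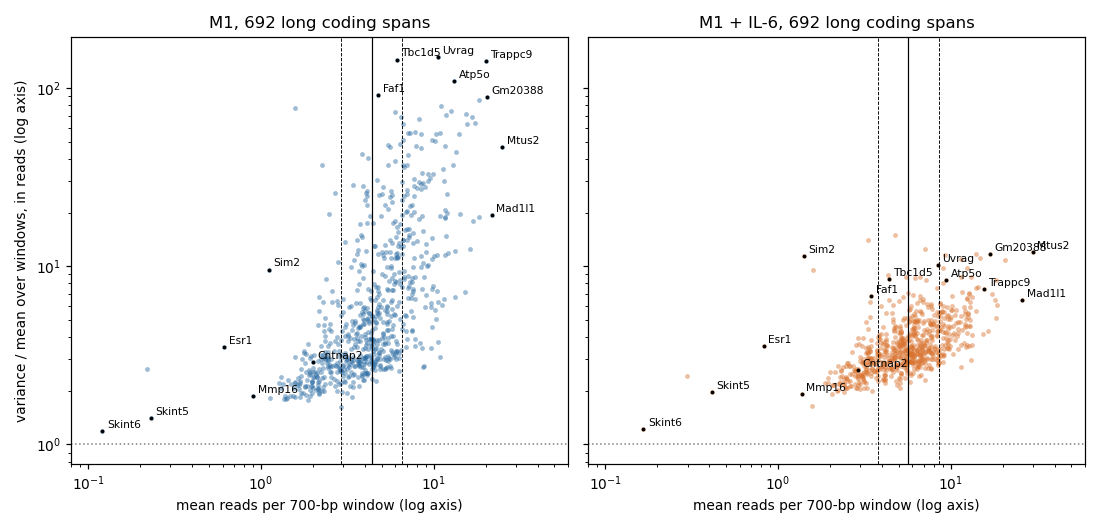
Mean reads per 700-bp window and the variance over windows divided by the mean, both on log axes, for the 692 long coding spans in M1 (left) and after IL-6 (right), 1 point per gene. The solid line marks the median of the members, dashed lines 1.5-fold from it, and the dotted line a quotient of 1. In M1 the quotient reaches 150 in Uvrag, and after IL-6 it stays at or below 14.9.

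Uvrag, Tbc1d5 and Trappc9 had the most uneven signal in M1. From the mean and the SD the reads of the strongest window can be bounded. In Uvrag, which encodes a partner of Beclin 1 in autophagy, the mean was 10.6 and the SD 39.8, so that at least 1 window held 161 reads or more. After IL-6 the mean was 8.44 and the SD 9.41, and the bound was 19 reads. Tbc1d5, a regulator of Rab7 and the retromer, had a mean of 6.12 with an SD of 29.7 in M1 and 4.39 with 6.23 after IL-6, and its bounds were 151 and 13 reads. In Trappc9 the variance over mean was 141 and 7.45, with bounds of 161 and 23. All 3 genes thus held a far stronger window in M1 than the bound after IL-6, although a bound leaves the true maximum open above it.

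Atp5o, a subunit of the mitochondrial ATP synthase whose listed span runs over 2 other genes, had quotients of 110 and 8.37 in the 2 libraries. Faf1, a Fas-associated factor, had 91.0 and 6.78, and Gm20388 had 89.3 and 11.7. Faf1 had a mean close to the median of the members, 4.78, so that its spread and not its mean set it apart. A high quotient remained after IL-6 in Kctd16, with 42.4 in M1 and 14.9 after IL-6, and in Nkain3, with 19.6 and 14.1. These 2 were named after their values were seen.

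The study detected sites by a count of more than 21 reads, and the same number was applied here to a 700-bp window. For 134 members (19.4%; 43.3% of all genes) the mean and SD prove such a window in M1, and for 18 (2.6%; 22.1% of all genes) after IL-6. Of these, 16 had it in both libraries and 2 after IL-6 alone, a split that was not counted over all genes. Among genes with a certain window after IL-6, Mtus2 had at least 41 reads and Mad1l1 at least 32 in their strongest window, and Ulk4, a kinase-like gene named after its value was seen, had at least 31. For the other members a window of this size can exist without being provable from these values. The recovered parts of a span, described below, can prove more such windows and were not used for these counts. Each added window of background makes the proof harder, so a long gene can fail where a short one with the same window passes. The shares of long genes, of lists and of all genes are thus not a like measure.

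After IL-6 the signal of nearly all long genes was higher relative to the table's scale. The log2 ratio of scaled reads had a median of 0.43 over the members and 0.05 over all genes, and it was 0.14 for 2 to 4 windows, -0.00 for 5 to 14, -0.06 for 15 to 49, 0.09 for 50 to 149 and 0.26 for 150 to 299. A value above 0 was found for 629 members (90.9%; 51.5% of all genes) and below 0 for 63 (9.1%; 48.5% of all genes). At least 1.5-fold higher were 79 members (11.4%; 10.5% of all genes) and at least 1.5-fold lower 2 members (0.289%; 23.2% of all genes). Both counts depend on the scale, with 18 higher and 4 lower without scaling, and 0 higher and 36 lower with the median of the long genes set to 0. The interval of the ratio, not counted over all genes, lay above 1 for 599 members, below 1 for 46 and included 1 for 47. These directions rest on the scale. Without scaling the median was 0.37 and with the totals over coding spans 0.46, with 84 and 55 members lower, whereas setting the median of the long genes to 0 puts 346 members on the lower side, and scaling to strong single windows (22 reads or more in each library) shifts each value by 1.83 and leaves 0 lower.

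The change after IL-6 was ordered by the spread in M1. Over quartiles of the M1 variance over mean the median log2 ratio was 0.54, 0.50, 0.36 and 0.10, and 0, 1, 5 and 57 of 173 members were lower. The rank correlation of the 2 measures over the 692 members was -0.78, but both use the M1 reads. Over quartiles of the quotient after IL-6, the medians were 0.51, 0.47, 0.39 and 0.21, and 2, 4, 20 and 37 members were lower. That quotient does not use the M1 reads, but it shares the IL-6 reads with the ratio. The 2 quotients also had a rank correlation of 0.79, so neither comparison is independent of the ratio.

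**Figure D3:**
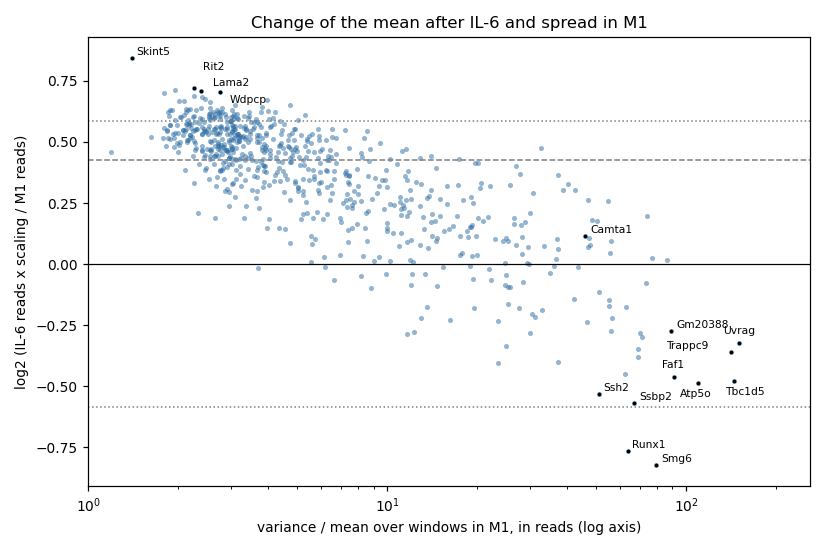
The log2 ratio of scaled IL-6 reads to M1 reads of each of the 692 long coding spans against its variance over mean in M1 (log axis). The solid line is 0, the dashed line the median of 0.43, and the dotted lines 1.5-fold; Smg6 and Runx1 lie below the lower one, and setting the median of the members to 0 would move each point down by 0.43.

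The lowest ratios belonged to genes that were uneven in M1. Smg6, an endonuclease of nonsense-mediated decay, had 11.1 reads per window (10.7 to 11.4) in M1 and 6.25 (5.98 to 6.53) after IL-6, a log2 ratio of -0.82. Runx1, a transcription factor that blood stem cells require, had 17.3 (16.8 to 17.7) and 10.2 (9.81 to 10.5), a log2 ratio of -0.76. These were the 2 members at least 1.5-fold lower. Ssbp2, a partner of the LDB1 complex, had 8.19 and 5.53, Ssh2, a cofilin phosphatase, had 6.69 and 4.62, and Atp5o had 13.2 and 9.40. The log2 ratios of these 3 were -0.57, -0.53 and -0.49. With the median of the long genes at 0 all 5 would be lower still, and with the scaling to strong single windows all 5 would be higher.

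High ratios belonged to genes of low and even signal. Skint5 had 172 reads in M1 and 298 after IL-6, a log2 ratio of 0.85 (ratio interval 1.49 to 2.18). Rit2, a small GTPase of neurons, had means of 1.98 and 3.27 (log2 ratio 0.72). Lama2, a laminin chain of basement membranes, had 2.11 and 3.45 (0.71). Wdpcp, a gene of planar polarity and cilia, had 2.44 and 3.97 (0.70). Their M1 quotients of variance and mean were between 1.40 and 2.77, and these 4 had M1 means below the median of the members.

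Lists of genes, 6 in all, were then described, each beside the median of the 692 members, 4.39 in M1 and 0.43 for the log2 ratio. The lists were chosen with earlier results of these data known, and a list need not hold every member of its kind. Of 18 names listed as cadherins, the calcium-dependent adhesion molecules, 9 were members, with medians of 2.36 in M1 and 3.48 after IL-6. Of these, 1 was lower after IL-6 (9.1% of all members were). Cdh13, a cadherin anchored by lipid, had 8.56 and 10.8, and Cdh4 had a counting interval of 10.7 to 11.2 in M1 and a mean of 11.7 after IL-6, with a window of at least 67 reads in M1. Pcdh9 had 2.08 and 3.32, and Pcdh15, a part of the tip link of hair cells, had 2.36 and 3.48. The list was thus split, with 3 members above background and 6 below in M1 (22.5% and 24.4% of all members). The list of neuronal adhesion and guidance genes had 38 members, with medians of 2.61 and 3.59. In M1, 22 of them were below background (24.4% of all members were), and 0 had a provable window of over 21 reads (19.4% of all members). Csmd1, a large complement-control protein, had 2.85 and 3.89, Csmd3 had 1.73 and 2.33, and Nrxn3, a presynaptic neurexin, had 3.70 and 5.43. Each of the 38 was higher after IL-6 as scaled (90.9% of all members were). With the median of the long genes set to 0, 5 were lower (346 of the 692 members were).

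Synaptic receptors, channels and scaffolds had 53 members, with medians of 3.68 and 5.07 and a median log2 ratio of 0.51. In this list 6 members had a provable window in M1 and 2 were lower after IL-6, against 19.4% and 9.1% of all members. Magi2, a synaptic scaffold, had 2.79 and 3.88, and Kcnip4, a potassium channel partner, had 1.99 and 3.09. The 2 lower members were Kcnq5, a potassium channel with 4.08 and 3.82, and Cacnb2, a calcium channel subunit with 5.23 and 5.16. Genes of large common fragile sites, which share Cntnap2 and Dlg2 with the lists before, had 18 members with medians of 3.08 and 3.87. Of these, 0 were lower after IL-6 as scaled (9.1% of all members). With the median of the long genes set to 0, 6 were lower (346 of the 692 members were). The highest of them was Wwox, an oxidoreductase gene, with 8.64 and 10.8.

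Genes with a role in blood cells had 21 members, with medians of 5.86 in M1 and 6.10 after IL-6, a median M1 quotient of 9.07 and a median log2 ratio of 0.15. A provable window was found for 6 of them in M1 and for 0 after IL-6 (19.4% and 2.6% of all members). Their median GC content was 42.2%, against 36.6% for the cadherins, 39.0% for the neuronal adhesion genes, 40.3% for the synaptic genes and 39.1% for the fragile site genes, and its part in the levels was not tested. Lower after IL-6 were 5 of the 21 blood cell genes (9.1% of all members), Runx1, Ssbp2, Dock10, Etv6 and Foxp1. Etv6, a repressor of the ETS family, had 10.4 and 8.55. Dock2, the Rac activator of leukocyte migration, had 6.08 (SD 9.41) in M1 and 6.50 (SD 5.54) after IL-6. Mecom, the locus of the stem cell factor Evi1, had 5.86 in M1 and a counting interval of 7.80 to 8.20 after IL-6, Lrba, which protects CTLA-4 from degradation, had 4.63 and 5.14, and Arhgap15, which inactivates Rac, had 3.59 and 3.81.

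Genes used by most cell types had 23 members, with medians of 5.36 and 5.60, a median M1 quotient of 14.1 and a median log2 ratio of 0.14. In this list 11 members had a provable window in M1 and 4 after IL-6, and 6 were lower after IL-6, among them Trappc9, Tbc1d5 and Uvrag, against 19.4%, 2.6% and 9.1% of all members. Trappc9, Tbc1d5 and Uvrag had the highest M1 quotients of all members, and the list was chosen with earlier results of these data known. Its counts are therefore a description only. Their median GC content was 40.0%. Exoc4, a subunit of the exocyst, had 4.10 (SD 10.4) in M1 and 4.59 (SD 4.10) after IL-6. Smyd3, a lysine methyltransferase, had 5.36 and 6.79, Vps13b, a lipid transfer protein of the Golgi, had 3.96 and 4.20, and Gmds, the first enzyme of GDP-fucose synthesis, had 3.92 and 4.54. With the median of the long genes set to 0, the median log2 ratio of the blood list became -0.28 and that of the widely used genes -0.29, while those of the other 4 lists stayed between 0.02 and 0.08. The 535 members on no list had medians of 4.48 and 5.83.

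**Figure D4:**
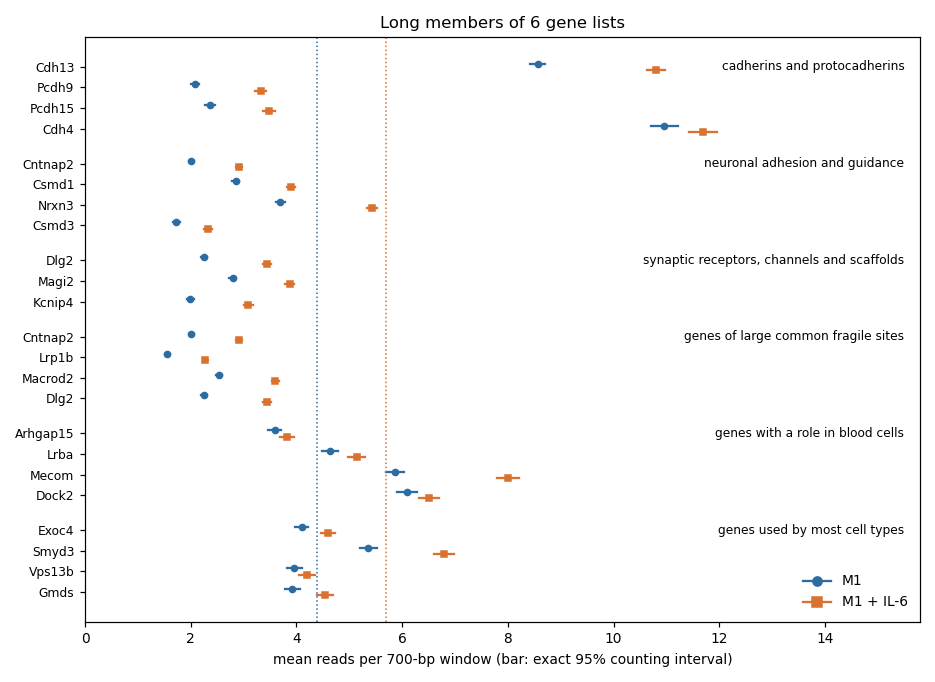
Mean reads per 700-bp window in M1 (circles) and after IL-6 (squares, as scaled by the authors) of members with many windows in each of 6 gene lists, with exact 95% counting intervals. Dotted lines mark the medians of the 692 members, 4.39 and 5.69; the neuronal and fragile site genes lie left of them, Cdh13 and Cdh4 to the right.

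Transcripts of a gene that differ in their ends allowed the reads of parts of a span to be recovered. Of the 692 members, 501 were split into 2 or more parts, 1882 parts in all, of which 72 were single windows. For 33 members the first part had at most 20 windows and held the start of the transcript. Its median M1 mean was 5.50 reads per window against 3.93 in the rest of these genes, and it was at least 1.5-fold above the rest in 15 and below it in 3. After IL-6 the first part was lower in 13 of the 33 genes and the rest in 1, while 48.5% of all genes and 9.1% of members were lower. The log2 ratio of the first part was below that of the rest in 22. Some first parts were 1 window of few M1 reads, such as 2 in Lrrtm4 and 4 in Pde1a. There the interval of the ratio included 1. The medians of the log2 ratio were 0.15 and 0.47. The comparison of the first part with the rest does not depend on the scale, whereas the counts of lower parts do.

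Camta1 had the strongest first part. Its first 10 windows held 732 reads in M1 and 169 after IL-6, or 73.2 and 17.5 reads per window as scaled, and a single window held between 548 and 632 of the M1 reads. The other 1133 windows had 7.88 and 9.07 reads per window. The ratio after IL-6 was 0.240 (0.202 to 0.284) in the first part and 1.15 (1.12 to 1.18) in the rest, so that the start and the body of Camta1 went in opposite directions on the table's scale. The sequence given for Camta1 above lies in these windows.

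Chchd3 showed the same order. Its first 16 windows held 451 and 139 reads, with 219 to 312 of the M1 reads in 1 window, and their ratio was 0.320 (0.263 to 0.388) against 1.26 (1.18 to 1.34) in the rest. In Agmo, which was not among the 5 highest, the first 5 windows held 97 and 27 reads, with a ratio of 0.289 (0.181 to 0.447) there and a log2 ratio of 0.47 in the rest. Nubpl had 233 and 161 reads in its first 12 windows, and the ratios were 0.717 (0.583 to 0.881) and 1.31 (1.23 to 1.41).

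Arid1b, a subunit of the BAF chromatin remodeling complex, had 85 and 26 reads in its first 2 windows, with ratios of 0.318 (0.196 to 0.498) there and 0.833 (0.797 to 0.870) in the rest. In Mdga2, a cell surface protein of synapses, the first window held 29 and 36 reads, and the ratio of 1.29 (0.768 to 2.18) could not be told from the 1.35 of the rest. In Dnm3, a dynamin, the first window held 21 and 14 reads, and its ratio of 0.692 (0.326 to 1.43) included 1. At the other end, the first 18 windows of Galntl6 held 32 and 34 reads, and the first window of Lrrtm4 held 2 and 2. The rest of these genes had 2.16 and 1.75 reads per window in M1. After IL-6 the first part of Galntl6 was at 0.638 (0.441 to 0.892) of the rest.

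Longer parts showed that the change was uneven also within a gene. In Runx1 the first 186 windows had 22.4 reads per window in M1 and 10.9 after IL-6, a ratio of 0.487, and 1 window of them held at least 102 reads in M1. The 128 windows from 130.9 to 220.5 kb had 9.71 and 8.97, a ratio of 0.924. In Trappc9 the 210 windows from 60.2 to 207.2 kb had 29.7 and 16.2, with at least 283 reads in 1 window in M1, while the last 302 windows had 13.2 and 15.6. In Wwox the first 48 windows had 22.5 and 15.7, and the other 3 parts had 7.83 to 8.71 in M1 and 10.2 to 11.1 after IL-6. Cntnap2 stayed low in both of its parts, with 1.99 and 2.88 over the first 3159 windows and 3.48 and 5.50 over the last 40. Runx1, Trappc9, Wwox and Cntnap2 were taken as examples after their values were seen.

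**Figure D5:**
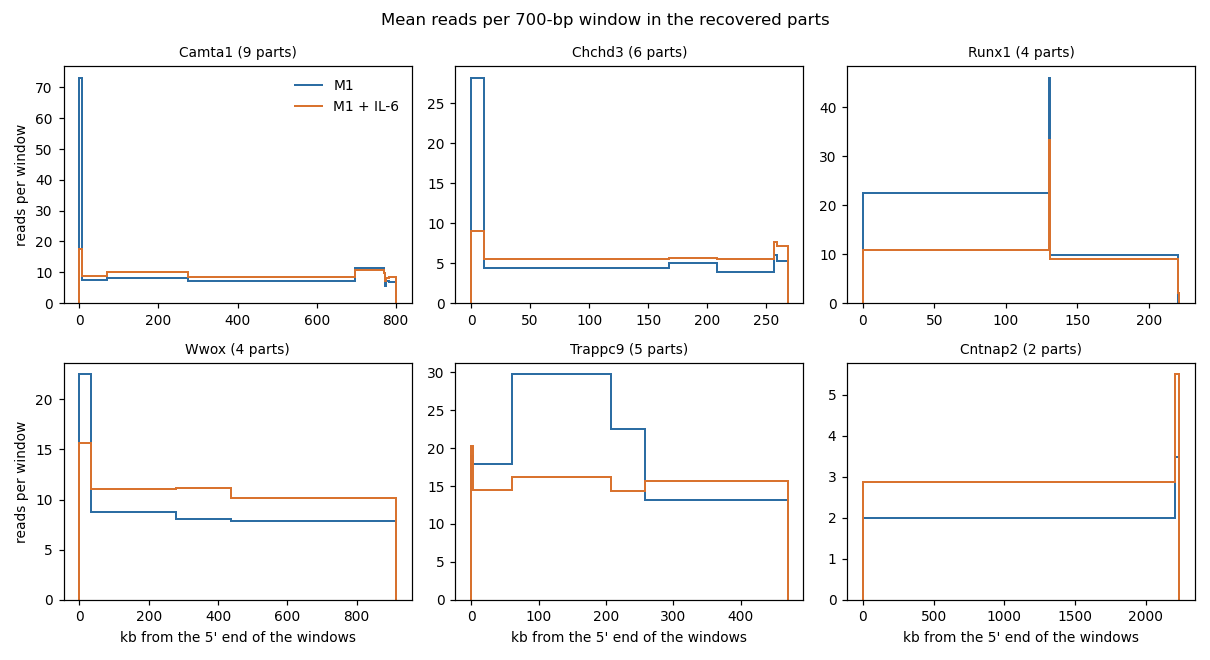
Mean reads per 700-bp window in each recovered part of 6 members against the distance in kb from the 5′ end of the windows, in M1 and after IL-6 (as scaled by the authors). The first part of Camta1 is at 73.2 in M1 and 17.5 after IL-6, and in Runx1 the M1 line is the higher one over the first 186 windows and over the 128 windows near the 3′ end.

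At the limit of 300 windows, Epb4.1l4a, Ptpro, Rbms1, Sgip1 and Vps8 had 300 windows and M1 means of 5.19 to 7.88, and E130114P18Rik, Nfib, Pdgfd and Sik3 had 299 windows and M1 means of 2.04 to 13.8. As a check of the cell label, 7 myeloid and progenitor markers had M1 means of 7.86 to 46.5 and 8 markers of other cell types 3 to 14.6. The medians were 12.3 and 7.58 in M1 and 13.5 and 13.7 after IL-6. Spi1 was also planned as a myeloid marker but had no entry under that name. The ranges overlapped, so these markers do not settle the cell label.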

How the data were processed

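DNase I fragments were sequenced from untreated and IL-6-treated M1 cells, 1 library each. The authors aligned the reads with BWA to NCBIM37 and deposited, for each of 55432 transcripts, the signal as mean and SD over 700-bp windows. A mean multiplied by its windows gave whole reads within 0.05 in 100% of rows, once a read counted 1 in M1 and 1.04 after IL-6. The authors' scaling was kept. Members and lists were chosen with earlier results of these data known. Named genes were those with the most windows, extreme M1 means, spreads or log2 ratios, the longest of each list, the strongest 5′ parts and the genes at the threshold. Intervals are exact (Poisson for means, Clopper-Pearson for ratios, 95%), 0.5 reads were added in log2 ratios, and no test was made across libraries. Fragments carry no molecular identifiers. Some genes that this rule names are not reported here. Recovery of reads was tested on simulated data. GC content, unique 32-base sequences and starts came from NCBIM37 and GENCODE M1. Alternatives covered scaling, fold, threshold and background. Python 3.11.15, numpy 2.4.6, pandas 2.3.3, scipy 1.17.1, numba 0.67.0 and matplotlib 3.10.9 were used.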

Additional observations from a re-analysis of the deposited data

Results flagged for a closer look

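Long coding spans on chromosome X were not used in any comparison. The 32 of them with at least 300 windows had a median M1 mean of 1.22 reads per window and 1.56 after IL-6, with M1 means from 0.249 to 3.73 and 25724 M1 reads in all, above the 3 reads that a count of 0 allows. The difference from the other chromosomes was not tested.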

How the results depend on the processing

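No paired analysis was possible because there was a single library for either condition. Of 50 alternative values for 14 results, 19 stayed within the limit set (the counting interval for medians, 1.5 times for counts) and 31 moved, 6 of the 50 being added after the data were seen. With at least 200 or 400 windows the median mean was 4.89 or 4.02 in M1 and 6.02 or 5.35 after IL-6. At a smaller fold and at 2-fold from background 235 and 69 members were above in M1, 205 and 54 above after IL-6, and at 2-fold 89 and 56 below. Against the members nearest in GC content 92 and 29 were above and below in M1, and 41 and 20 after IL-6. Windows of more than 30 or 50 reads were certain for 86 and 37 members in M1 and for 3 and 0 after IL-6. The median log2 ratio was 2.25 with the scaling to 544 strong single windows and 0 with the long genes set to 0. Higher after IL-6 were 451 members at the smaller fold and 0 at 2-fold, 18 without scaling, 138 with the totals, 692 with the strong windows and 0 with the long genes set to 0. Lower were 14 at the smaller fold and 0 at 2-fold, 4 without scaling, 0 with the strong windows and 36 with the long genes set to 0. Of members called at 1.5-fold, 97.5% were higher on the authors' scale and 81.8% without scaling. Depth limits what single windows and short parts can show.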

Other observations

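The 3′ ends of long genes were also recovered. For 111 members the last part had at most 20 windows, and its M1 mean was at least 1.5-fold above the rest in 35 and below it in 23. The median was 5.27 reads per window against 4.55 in the rest. After IL-6 the last part was lower in 21 and the rest in 12, while 48.5% of all genes and 9.1% of members were lower. Mtus2, the member with the highest mean, had its strongest signal just before its last part. It had 105 reads per window in M1 and 53.1 after IL-6 over 6 windows from 226.8 to 231 kb. Its last part, 9 windows, had 53.9 and 31.3. The 269 windows of Mtus2 from 0.7 to 189 kb had 21.2 and 28.1.

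By chromosome, the median M1 mean of the members was lowest on chromosome 10, at 3.41 over 37 members, and chromosome 1, at 3.69 over 61. It was highest on chromosome 15, at 6.21 over 34 members, and chromosome 9, at 6.01 over 35. The members of chromosome 15 also had the lowest median log2 ratio, 0.27, with 6 of 34 lower after IL-6.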
